A study of Mus musculus with 6 samples.

Results

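Klotho (Kl), beta-klotho (Klb), the FGF receptor genes Fgfr1, Fgfr2 and Fgfr3, the vitamin D receptor gene Vdr, its partner Rxra and the phosphate transporter genes Slc20a1 and Slc20a2 were followed across the nucleus classes of the mouse brain and between sham-operated and nephrectomised mice. These 9 genes were found by symbol among the 32285 genes of the deposited matrices. The matrices hold unique molecular identifier (UMI) counts, 1 UMI standing for 1 captured RNA molecule, from droplet-based 3' sequencing of nuclei sorted by flow cytometry from wildtype C57BL/6 mice. There were 3 sham libraries and 3 libraries from mice with 5/6 nephrectomy, a standard surgical model of chronic kidney disease, all taken 6 weeks after surgery. No transgene or deletion is named for either group. The tissue label is brain and the design text names the cortex, and the comparison asks how brain cells differ in chronic kidney disease.

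FGF receptors are tyrosine kinases that most FGF ligands engage together with heparan sulphate. The endocrine ligands bind weakly alone and use a klotho protein as co-receptor: FGF23 from bone signals through an FGF receptor with klotho, mainly in the kidney, where it lowers phosphate reabsorption and the making of active vitamin D, while FGF21 uses beta-klotho. Active vitamin D binds VDR, which regulates genes as a pair with a retinoid X receptor such as RXRA, and SLC20A1 and SLC20A2 (PiT-1 and PiT-2) carry phosphate into cells. In chronic kidney disease FGF23 and phosphate rise in blood while klotho and active vitamin D fall, and the choroid plexus is the brain site best known for klotho.

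Each nucleus was assigned to a class by its UMIs from fixed marker panels, and UMIs were then summed per library and class; levels are UMIs per 1000000 UMIs of that sum (CPM). Of 42589 barcodes, 40685 were kept and 22217 received a class. The sums used for tests came from 3789 excitatory neuron-like, 2483 inhibitory neuron-like, 7363 striatal projection neuron-like, 2910 astrocyte-like, 4180 oligodendrocyte-like, 614 oligodendrocyte precursor-like, 414 microglia-like and 284 endothelial-like nuclei, the last from 4 libraries that held at least 20 such nuclei. The striatal class has markers of neurons outside the cortex. Among the 10 leading genes of each class there were 1 to 7 markers of its own panel and 0 of another. The gate selects nuclei on these markers, so this count is no independent check of the classes. The choroid plexus gate held 1 nucleus and the ependymal gate 8, so klotho could not be measured where it is best known. Total counts ran from 15691316 to 41532967 UMIs per library. Sham 3 and nephrectomy 1 had long barcode lists (14756 and 12637 barcodes, against 2637 to 5033 in the others), and nephrectomy 1 had the lowest median, 1001 UMIs per kept nucleus, with 34.6% of its nuclei in a class. Libraries shared 158 barcodes in all. The labels do not say that each library is a separate animal, so p-values measure the spread between libraries, which may be technical.

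The genes lie on 5 mouse chromosomes (GENCODE M21, GRCm38, which is mm10). Fgfr3 spans chr5:33721674-33737068, Kl chr5:150952607-150993817, Klb chr5:65348314-65384007, Fgfr1 chr8:25513654-25575718, Slc20a2 chr8:22476788-22569612, Slc20a1 chr2:129198764-129211616, Rxra chr2:27676440-27762957 and Vdr chr15:97854425-97910630. Fgfr2 is annotated over 2960900 bases (chr7:130162451-133123350), a span that holds 22 other annotated genes on the same strand, against 0 or 1 for each of the other members. Reads from introns were counted, and whether reads of those genes entered the Fgfr2 count was not tested. RefSeq promoter windows (GRCm38.p6, 250 bases before to 50 after the start) were found for 7 of the 9 genes, and not for Fgfr1 or Slc20a2. Those of Fgfr3, Fgfr2 and Kl are shown because they belong to the receptor most limited to astrocyte-like nuclei, the receptor highest in oligodendrocyte-like nuclei and the co-receptor that was almost absent. Capitals mark the GC box GGGCGG or its reverse complement CCGCCC, searched on both strands, which 35.7% of the 32851 windows hold.
Fgfr3 (chr5:33721474-33721773, plus strand): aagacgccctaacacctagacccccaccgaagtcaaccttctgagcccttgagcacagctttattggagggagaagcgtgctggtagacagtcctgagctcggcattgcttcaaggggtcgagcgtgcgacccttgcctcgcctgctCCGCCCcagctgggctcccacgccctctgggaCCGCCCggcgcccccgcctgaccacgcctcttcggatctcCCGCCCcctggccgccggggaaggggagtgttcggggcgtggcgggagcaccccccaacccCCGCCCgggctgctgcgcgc
Fgfr2 (chr7:130266759-130267058, minus strand): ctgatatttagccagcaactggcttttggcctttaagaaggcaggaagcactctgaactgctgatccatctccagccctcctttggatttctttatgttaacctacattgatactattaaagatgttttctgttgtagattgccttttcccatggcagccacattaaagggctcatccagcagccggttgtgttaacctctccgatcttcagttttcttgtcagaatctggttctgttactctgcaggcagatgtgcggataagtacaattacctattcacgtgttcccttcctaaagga
Kl (chr5:150952357-150952656, plus strand): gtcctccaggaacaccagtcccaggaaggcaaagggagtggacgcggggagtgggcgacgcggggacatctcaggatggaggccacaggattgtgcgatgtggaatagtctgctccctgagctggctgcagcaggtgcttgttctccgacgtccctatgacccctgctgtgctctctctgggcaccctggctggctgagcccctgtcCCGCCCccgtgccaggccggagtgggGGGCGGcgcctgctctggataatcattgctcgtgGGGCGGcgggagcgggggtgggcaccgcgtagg
The Fgfr3 window shown has a GC content of 69.7%, 26 CpG dinucleotides and 4 GC boxes, and a second RefSeq window of that gene (chr5:33722056-33722355) has 73.0%, 30 CpG and 2 GC boxes. The Kl window, at 67.3%, has 19 CpG and 3 GC boxes. The Fgfr2 window has a GC content of 43.7%, 4 CpG and 0 GC boxes, and the Vdr window 61.3%, 15 CpG and 3 boxes. The median window has a GC content of 52.7% and 7 CpG. A match describes these letters and says nothing of a factor's binding.

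Fgfr1 and Fgfr3 were highest in astrocyte-like nuclei and Fgfr2 in oligodendrocyte-like nuclei. For each class, the 46 sums of the 8 classes were fitted together in edgeR with the library as a term, and the class was compared with the mean of the others. Of the 6 members that passed the filter on low counts in this fit, 4 were higher in astrocyte-like nuclei (Fgfr1, Fgfr2, Fgfr3 and Slc20a1), beside 23.1% of 14988 genes called higher there. In oligodendrocyte-like nuclei Fgfr2 and Slc20a2 were higher, beside 17.4% of genes. In excitatory neuron-like nuclei Slc20a1 was higher, beside 33.0%, and Fgfr1, Fgfr2, Fgfr3 and Rxra were lower, beside 20.4%. In inhibitory neuron-like nuclei Fgfr2 and Rxra were higher, beside 26.2%, and Fgfr3, Slc20a1 and Slc20a2 were lower, beside 16.5%. Striatal projection neuron-like nuclei had Slc20a1 higher, beside 30.5%, and Fgfr2 lower, beside 17.9%. In oligodendrocyte precursor-like nuclei Fgfr1 was higher, beside 13.7%, and Fgfr2 and Slc20a1 were lower, beside 10.8%, and in oligodendrocyte-like nuclei Fgfr1 and Rxra were lower, beside 7.7%. In microglia-like nuclei Fgfr1 and Slc20a1 were lower, beside 14.9%, and in endothelial-like nuclei Slc20a1, beside 11.8%. Shares this high mean that a call alone is common in this fit, so the sizes below carry the description.

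Fgfr3, which encodes the receptor known in brain from astrocytes and their precursors, reached 398, 390.1 and 309 CPM in the 3 sham astrocyte-like sums, in the order of the library numbers, and 260.0, 329.6 and 313 CPM in the 3 nephrectomy ones. All 6 values lay above every other class of every library. The mean was 333 ± 52.6 CPM (SD, n = 6), and the next class in order, oligodendrocyte precursor-like nuclei, had 26.5 ± 16.6 (n = 6). Against the mean of the other classes the log2 difference was 4.88 ± 0.15 (SE, edgeR, adjusted p = 4.87e-26). From the second to the last class, excitatory neuron-like nuclei at 5.58 ± 2.66 CPM, neighbours in the order overlapped in range.

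RNA released from broken cells enters droplets of every class, so the level outside the leading class was set beside the summed astrocyte panel in the same sums. In excitatory neuron-like nuclei Fgfr3 stood at 1.81 ± 1.14% of its astrocyte-like level in the same library (SD, n = 6), and the panel at 2.74 ± 0.94%. The corresponding values were 2.84 ± 0.85% and 3.69 ± 1.30% in inhibitory neuron-like nuclei, and the striatal class had 4.45 ± 2.29% and 8.82 ± 1.56%. Fgfr3 was above the panel in 0, 1 and 0 of 6 libraries in these classes, in 2 of 6 in oligodendrocyte-like nuclei and in 1 of 6 in precursor-like nuclei. These low Fgfr3 levels were mostly at or below those of the panel, and their source was not tested. The gate itself limits the panel outside its own class, so the panel is not a free measure of released RNA. A level above or below a panel, for Fgfr3 and for the receptors that follow, therefore does not decide whether a class expresses the gene.

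Fgfr1, the most widely expressed receptor of the family, had its highest level in the same class, with 327, 373 and 266 CPM in the sham and 225, 279 and 250.1 CPM in the nephrectomy astrocyte-like sums. Its mean there was 287 ± 54.3 CPM (SD, n = 6), a log2 difference of 2.83 ± 0.08 from the other classes (edgeR, adjusted p = 2.96e-43). Oligodendrocyte precursor-like nuclei followed with 106 ± 25.6 CPM (0.80 ± 0.16 on the log2 scale, adjusted p = 7.66e-05), and all astrocyte-like values lay above all of theirs. Inhibitory neuron-like and striatal projection neuron-like nuclei had 60.1 ± 15.7 and 51.5 ± 8.50 CPM and overlapped. Excitatory neuron-like nuclei were last, at 20.8 ± 4.15 CPM (-1.50 ± 0.13, adjusted p = 3.51e-16). Unlike Fgfr3, Fgfr1 was above the astrocyte panel in every library of the neuronal and oligodendrocyte-lineage classes: in inhibitory neuron-like nuclei it stood at 20.8 ± 2.87% of its astrocyte-like level where the panel stood at 3.69 ± 1.30%, and in excitatory neuron-like nuclei at 7.31 ± 0.95% against 2.74 ± 0.94%.

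Fgfr2, whose product is known as a receptor of myelinating cells, was highest in oligodendrocyte-like nuclei, with 248, 240.2 and 253 CPM in sham and 175, 259 and 289.9 CPM in nephrectomy libraries (244 ± 37.9, n = 6; log2 difference 3.51 ± 0.15, edgeR adjusted p = 1.34e-21). Astrocyte-like nuclei had 127 ± 29.3 CPM (2.49 ± 0.17, adjusted p = 4.79e-15) and inhibitory neuron-like nuclei 53.2 ± 14.6 (0.96 ± 0.21, adjusted p = 0.000289). These 3 classes did not overlap from one to the next. Excitatory neuron-like nuclei had 4.30 ± 1.50 CPM (-3.07 ± 0.35, adjusted p = 1.85e-09), which was 1.76 ± 0.53% of the oligodendrocyte-like level where the oligodendrocyte panel stood at 1.72 ± 1.26%. The inhibitory neuron-like level was 21.9 ± 5.41% of the oligodendrocyte-like one, against 2.28 ± 1.74% for the panel, and the astrocyte-like level 52.4 ± 11.3% against 3.88 ± 2.21%. Precursor-like nuclei, which share a lineage with oligodendrocytes, had 0 UMIs of Fgfr2 in sham 1 and nephrectomy 1 and 2 to 8 in the other libraries, with 5.56 ± 6.04% of the oligodendrocyte-like level against 5.27 ± 2.51% for the panel.

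**Figure D1:**
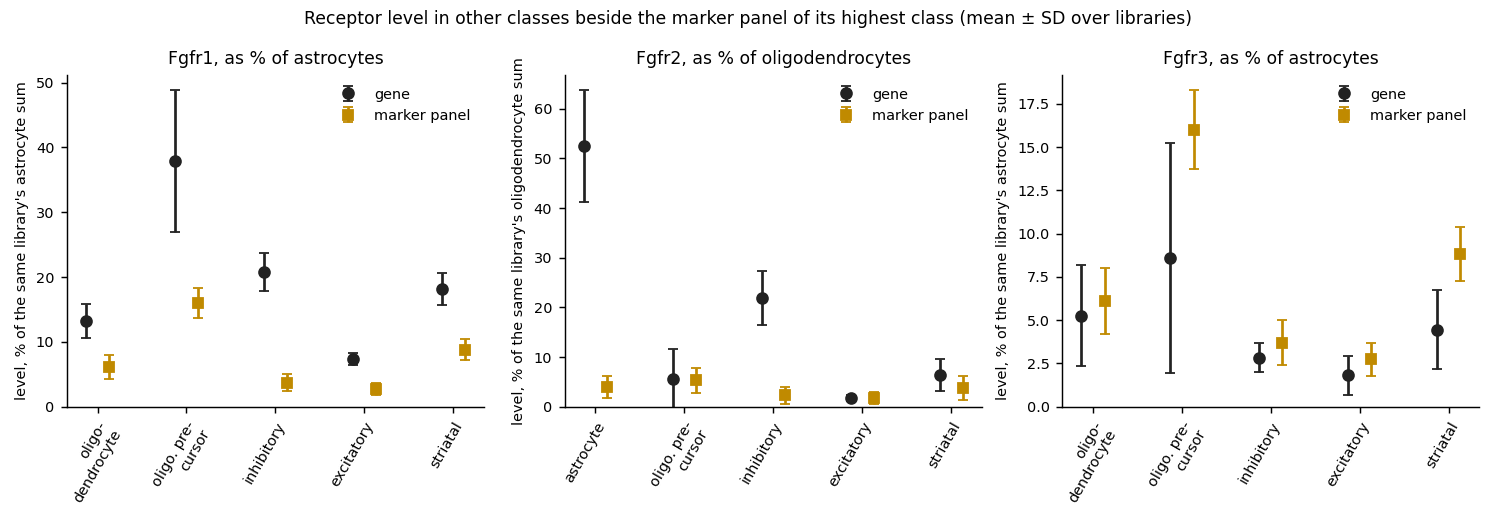
Level of Fgfr1, Fgfr2 and Fgfr3 (circles) in each class as a percentage of the class where the gene was highest in the same library, beside the summed marker panel of that highest class (squares); points are means and bars SD over 6 libraries. Fgfr3 lay below the mean of the panel in every class shown, whereas Fgfr1 lay above it in all of them and Fgfr2 in inhibitory neuron-like nuclei at 21.9% against 2.28%.

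The inhibitory class was also divided by its own markers, a division chosen after the data were seen, into nuclei led by Lhx6, Nxph1, Sst and Pvalb and nuclei led by Adarb2 and Vip. Fgfr2 had 44.3 ± 10.1 and 52.5 ± 17.4 CPM on the 2 sides (SD, n = 6), and Fgfr1 46.9 ± 10.1 and 57.4 ± 19.8. Each was higher on the Lhx6 side in 2 of 6 libraries, so UMIs of both receptors were found in both sets of interneuron-like nuclei. Fgfr2 in the striatal class varied more between libraries, with 2.68, 10.6 and 21.8 CPM in sham and 17.7, 18.4 and 20.1 CPM in nephrectomy sums. The summed oligodendrocyte panel in those sums was also lowest in sham 1, at 132 CPM against 253 to 595 in the others, and its part in the Fgfr2 values was not tested.

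Phosphate entry genes were spread more widely. Slc20a1 was highest in astrocyte-like nuclei (271 ± 16.1 CPM, n = 6; log2 difference 1.77 ± 0.08, edgeR adjusted p = 6.84e-31), then in excitatory neuron-like nuclei (182 ± 8.93; 1.13 ± 0.08, adjusted p = 1.58e-20) and striatal projection neuron-like nuclei (131 ± 15.8; 0.58 ± 0.08, adjusted p = 1.00e-08). Each of these 3 classes was separate from the next in the order, which after the striatal class was oligodendrocyte-like nuclei at 84.3 ± 12.8 CPM. The oligodendrocyte-like range overlapped with the class after it, inhibitory neuron-like nuclei at 78.3 ± 14.0 CPM. The astrocyte-like sums had 292, 276 and 256 CPM in sham and 253, 286 and 261 CPM in nephrectomy libraries, so both groups covered nearly the same range. Slc20a2 was highest in oligodendrocyte-like nuclei, at 82.1 ± 13.3 CPM (1.14 ± 0.12, edgeR adjusted p = 3.50e-13), with 33.5 to 50.1 CPM in the other 7, whose ranges overlapped. The oligodendrocyte-like range also overlapped with that of the next class, microglia-like nuclei at 50.1 ± 31.5 CPM, and was higher in 4 of 6 libraries. Xpr1, which encodes the phosphate exporter, was measured in every class, from 136 ± 17.7 CPM in oligodendrocyte-like to 262 ± 34.0 in oligodendrocyte precursor-like nuclei.

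Rxra was low everywhere, and its order is loose. In inhibitory neuron-like nuclei it had 14.0 ± 4.98 CPM (0.54 ± 0.22, edgeR adjusted p = 0.037), a call that was lost without sham 3 (0.38), nephrectomy 1 (0.46) or nephrectomy 3 (0.50). The adjusted p was then 0.264, 0.0963 and 0.108. In oligodendrocyte-like nuclei it had 4.87 ± 2.76 CPM (-1.01 ± 0.26, adjusted p = 0.00188), lost without sham 2 (-0.69) or with called doublets removed (-0.68), and its sign turned in nuclei of at least 1000 genes (1.35, adjusted p = 0.745). Microglia-like nuclei had the highest mean, 25.1 ± 20.7 CPM, from 0 to 5 UMIs per library, and were not called (1.18 ± 0.49, adjusted p = 0.065). The paralogue Rxrg, which can also pair with VDR, marked striatal projection neuron-like nuclei at 69.9 ± 23.3 CPM against 3.85 to 19.5 CPM elsewhere (log2 difference 3.21 ± 0.17, adjusted p = 1.06e-20).

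**Figure D2:**
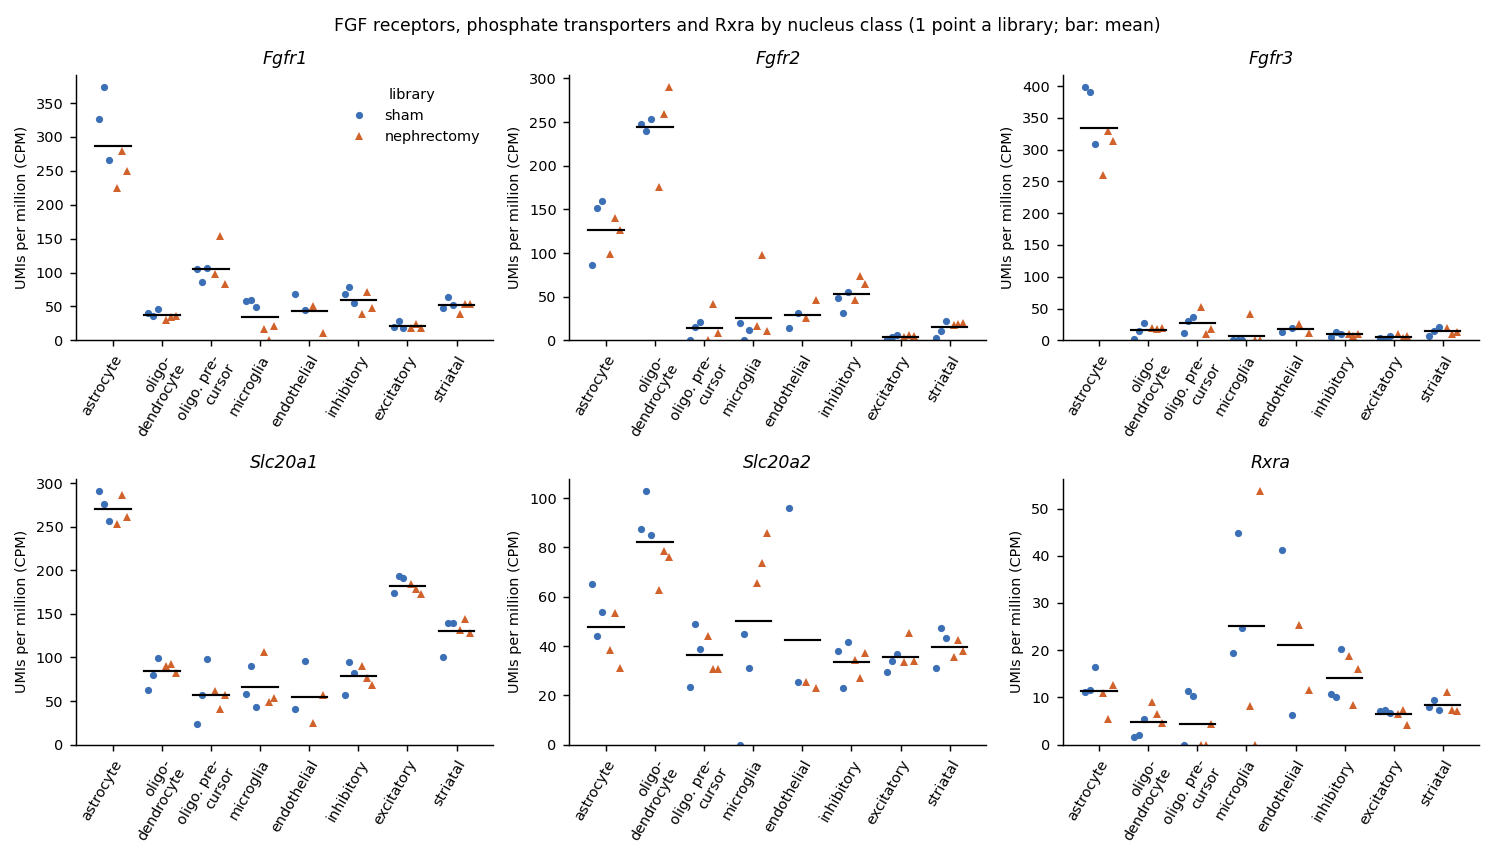
CPM of Fgfr1, Fgfr2, Fgfr3, Slc20a1, Slc20a2 and Rxra by nucleus class on linear axes, with 1 point for each library of at least 20 nuclei (circles sham, triangles nephrectomy) and a bar at the mean of all. Fgfr3 stood at 260.0 to 398 CPM in astrocyte-like nuclei and low elsewhere, Fgfr2 led in oligodendrocyte-like nuclei, and Slc20a1 was lower by steps from astrocyte-like to striatal projection neuron-like nuclei.

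The co-receptors and the vitamin D receptor were at the limit of detection. Kl had 280 UMIs over all 40685 kept nuclei, Klb 144 and Vdr 30, and no nucleus had more than 3 UMIs of Kl or 2 of Klb or Vdr. None of them passed the filter in the class fit. Pooled over libraries, Kl stood at 2.66 CPM in astrocyte-like nuclei (95% exact Poisson interval 1.67 to 4.03, counting error only), 2.20 in striatal projection neuron-like nuclei (1.71 to 2.77), 1.50 in excitatory neuron-like nuclei (1.03 to 2.11) and 0.902 in oligodendrocyte-like nuclei (0.432 to 1.66). In this order adjacent intervals overlapped, while that of oligodendrocyte-like nuclei lay below those of astrocyte-like and striatal projection neuron-like nuclei. Over libraries no class was separate from its neighbour in the order of means. Nuclei without a class held 132 of the 280 UMIs, at 2.07 CPM (1.73 to 2.46). Ttr, the choroid plexus transcript, had 29 UMIs in the sham and 153 in the nephrectomy libraries, while Kl had 145 and 135. The highest mean over libraries, 3.86 ± 6.35 CPM in microglia-like nuclei (n = 6), rests on 2 UMIs.

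Klb was at 1.94 CPM in astrocyte-like nuclei (1.11 to 3.15) and 1.50 in excitatory neuron-like nuclei (1.03 to 2.11), with 0.659 in striatal projection neuron-like nuclei (0.408 to 1.01), an interval that lies below both. Vdr had 8 UMIs in excitatory neuron-like nuclei (0.364 CPM, 0.157 to 0.718), where each of the 6 libraries had at least 1. It had 3 UMIs in inhibitory neuron-like, 2 in striatal projection neuron-like, 1 in oligodendrocyte-like and 1 in endothelial-like nuclei. Astrocyte-like nuclei had 0 Vdr UMIs among 8260844, which allows up to 0.363 CPM by 3 counts, and microglia-like nuclei 0 among 536340, which allows up to 5.59 CPM. For microglia-like nuclei this depth could not have shown Vdr at the level of any neuronal class.

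**Figure D3:**
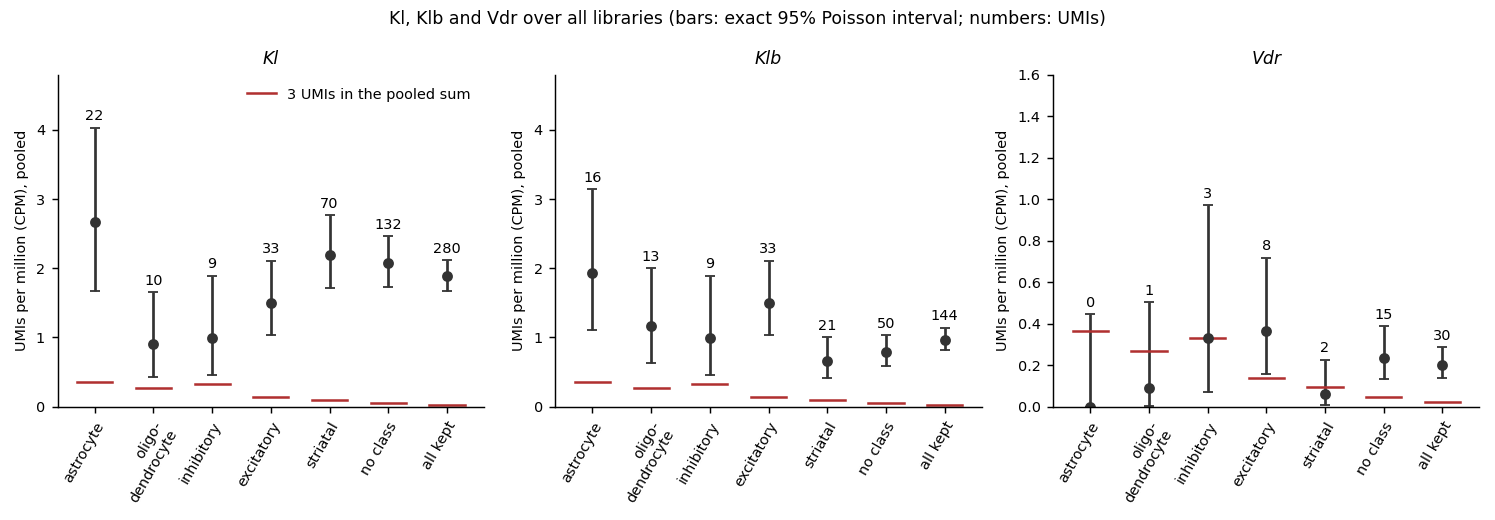
Pooled CPM of Kl, Klb and Vdr over all libraries by class, with exact 95% Poisson intervals (bars), the level of 3 UMIs in each pooled sum (short red lines) and the number of UMIs above each point. The Kl interval of oligodendrocyte-like nuclei lies below those of astrocyte-like and striatal projection neuron-like nuclei. Vdr rests on 8 UMIs in excitatory neuron-like nuclei and 0 in astrocyte-like nuclei.

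The partners of these genes showed the same limits. Fgf23 had 186 UMIs in all, at 2.1 CPM in excitatory neuron-like nuclei (1.53 to 2.79) and 1.99 in inhibitory neuron-like nuclei (1.18 to 3.15), against 0.242 in astrocyte-like nuclei (0.0293 to 0.875). Fgfr4, the remaining receptor, had 21 UMIs. Cyp27b1, which makes active vitamin D, had 83 UMIs, of which 33 were in striatal projection neuron-like nuclei (1.03 CPM, 0.712 to 1.45) and 12 in excitatory neuron-like nuclei (0.547, 0.282 to 0.955). Cyp24a1, a vitamin D-induced enzyme that degrades it, had 17.

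Among the other FGF ligands, Fgf1 was highest in astrocyte-like nuclei (90.1 ± 23.8 CPM, n = 6; log2 difference 2.89 ± 0.15, edgeR adjusted p = 1.59e-24). Sham 1 alone had 139 CPM of it there, and the other 5 libraries had 79.2 to 81.9. Fgf9, a ligand made by neurons, was highest in inhibitory neuron-like nuclei (50.4 ± 12.2 CPM; 1.91 ± 0.15, adjusted p = 6.42e-18). Fgf2 was near the limit, with a mean of 4.12 to 14.2 CPM over the 8 classes. Of the 13 FGF feedback and target genes measured, 8 were higher in oligodendrocyte precursor-like nuclei (13.7% of all genes were) and 7 in astrocyte-like nuclei (23.1%), with 1 and 3 lower. In excitatory neuron-like and striatal projection neuron-like nuclei 6 were higher in each (33.0% and 30.5%), with 4 and 5 lower. In inhibitory neuron-like nuclei 2 were higher (26.2%) and 5 lower (16.5%), and in oligodendrocyte-like nuclei 0 were higher (17.4%) and 5 lower (7.7%). Microglia-like nuclei had 6 lower (14.9%) and only Dusp6 higher, and endothelial-like nuclei had 3 lower (11.8%) and 1 higher. The share of all genes called higher is not given for these classes. Spry2, an inhibitor of receptor signalling, had 67.9 ± 17.2 CPM in astrocyte-like nuclei (1.84 ± 0.15, adjusted p = 1.53e-16). Its relative Spry4 had 84.3 ± 11.5 CPM in precursor-like nuclei (3.40 ± 0.25, adjusted p = 1.72e-19) against 16.6 ± 3.97 in astrocyte-like nuclei. The phosphatase gene Dusp6 was highest in microglia-like nuclei (110.5 ± 33.5 CPM; 2.12 ± 0.28, adjusted p = 2.43e-09), and Etv5, a transcription factor gene induced by FGF, was higher in oligodendrocyte precursor-like nuclei (62.9 ± 19.0 CPM; 0.77 ± 0.18, adjusted p = 0.000727) and excitatory neuron-like nuclei (52.7 ± 9.07; 0.68 ± 0.10, adjusted p = 1.85e-08).

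**Figure D4:**
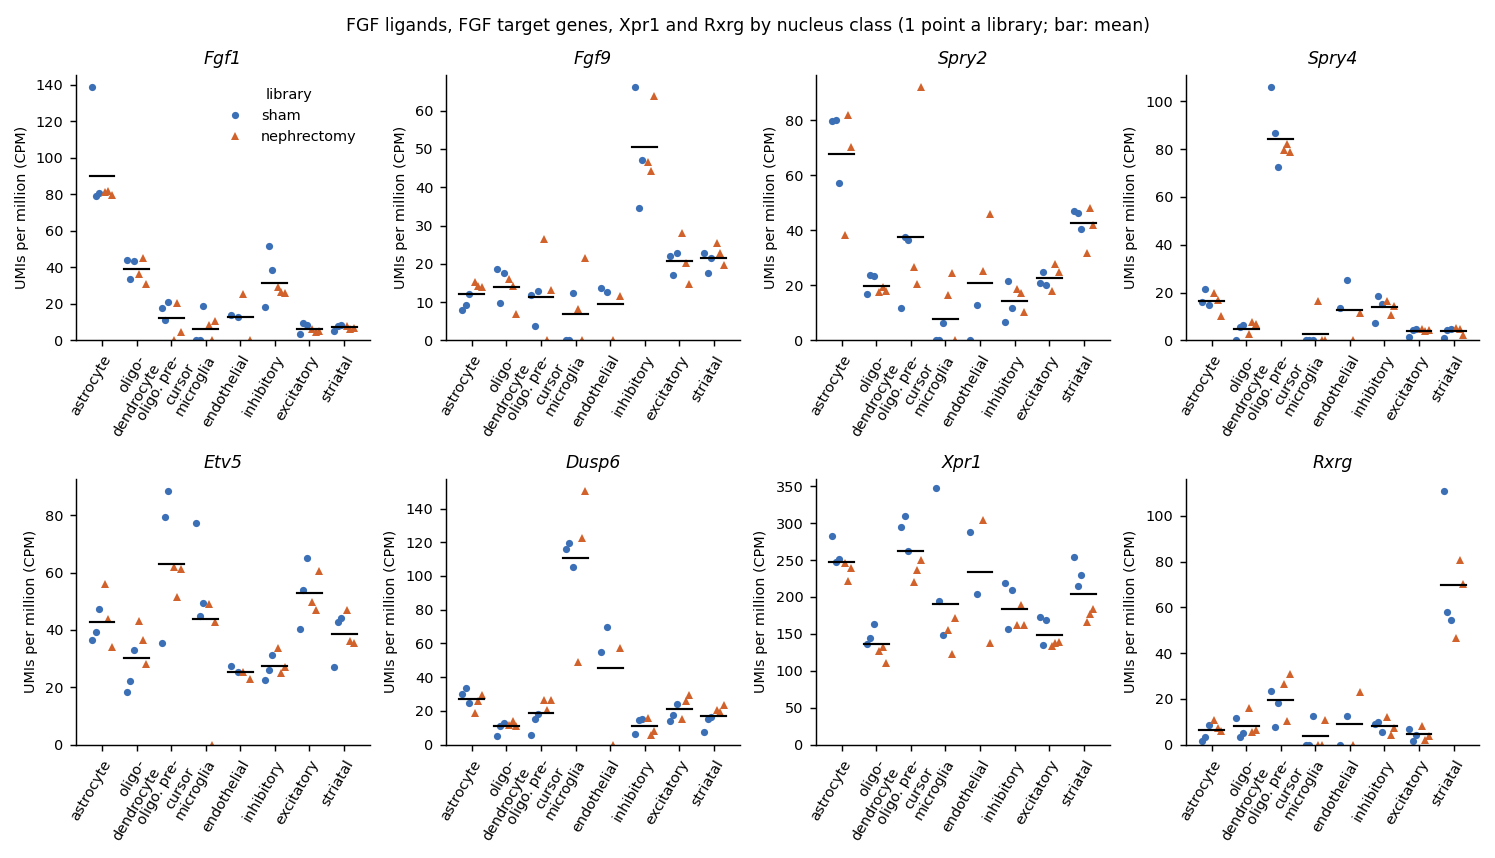
CPM of the ligand genes Fgf1 and Fgf9, the FGF target genes Spry2, Spry4, Etv5 and Dusp6, the phosphate exporter gene Xpr1 and Rxrg by nucleus class on linear axes, with 1 point a library (circles sham, triangles nephrectomy) and a bar at the mean. Fgf1 and Spry2 led in astrocyte-like nuclei, Spry4 in oligodendrocyte precursor-like nuclei at 84.3 CPM and Rxrg in striatal projection neuron-like nuclei at 69.9 CPM.

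The genes most like each member over the 46 sums were found by Pearson's r of log2(CPM + 1), given as a description, since sums of 1 library share its depth and its nuclei. Fgfr3 was closest to Gm6145 (r = 0.87), Acsl3 and Ndrg2, and Fgfr1 to Ndrg2 (0.86), F3 and Cpne2. Fgfr2 was closest to Myo6 (0.81), Gm4221 and Car2. Slc20a1 was closest to the astrocyte marker Bmpr1b (0.79), Slc20a2 to Map4k5 (0.85) and Rxra to Emd (0.74).

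Nephrectomy was then compared with sham within each class. None of the members tested was called, and edgeR called 0.0% of genes in each of the 8 classes: 0 of 13862 genes in excitatory neuron-like, 0 of 12037 in inhibitory neuron-like, 0 of 14083 in striatal projection neuron-like, 0 of 11358 in astrocyte-like, 0 of 12075 in oligodendrocyte-like, 0 of 4804 in oligodendrocyte precursor-like, 0 of 1733 in microglia-like and 0 of 1902 in endothelial-like nuclei. Over all kept nuclei it called 0 of 18397. At an unadjusted p under 0.05 edgeR had 753, 556, 795, 653, 523, 215, 74 and 62 genes in these classes and 910 over all nuclei, and the DESeq2 Wald test also called 0 in each. Of the 31 pairs of member and class that passed the filter, 21 were lower and 10 higher in nephrectomy, and 1 had an unadjusted p under 0.05. In astrocyte-like nuclei all 6 measured members were lower, with a median of -0.41 on the log2 scale, where the median of all 11358 genes was 0.01. With a stricter gate the median was -0.15 over 5 members, and without the 2 libraries of long barcode lists 5 of 6 were lower.

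That pair was Fgfr1 in astrocyte-like nuclei, whose values are given above: the sham libraries had 266 to 373 CPM and the nephrectomy libraries 225 to 279, so the groups overlapped. The log2 fold change was -0.44 ± 0.18 (SE) with an adjusted p of 0.857 in edgeR. It was -0.26 with a stricter gate, and from -0.61 to -0.35 when 1 library was left out. Fgfr1 was also lower in 4 of the other 5 classes where it was tested, at -0.38 ± 0.26 in inhibitory neuron-like, -0.33 ± 0.21 in oligodendrocyte-like, -0.23 ± 0.19 in striatal projection neuron-like and -0.14 ± 0.22 in excitatory neuron-like nuclei, and at 0.08 ± 0.32 in oligodendrocyte precursor-like nuclei. Without nephrectomy 1 the inhibitory neuron-like value was -0.20 and the striatal one -0.06. Without nephrectomy 2 the former was -0.68, and without sham 2 the striatal value was -0.12 and the excitatory one 0.039. These classes come from the same libraries, and none of the values was called.

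Fgfr3 in astrocyte-like nuclei differed by -0.37 ± 0.18 (edgeR, adjusted p = 0.865), with nephrectomy 1 lowest at 260.0 CPM and sham 1 highest at 398, and by -0.15 with the stricter gate. Fgfr2 there differed by -0.22 ± 0.20, Slc20a1 by -0.13 ± 0.16, Slc20a2 by -0.48 ± 0.26 and Rxra by -0.53 ± 0.37. Single libraries moved them by over 1.5 times. Without sham 1, Fgfr3 was at -0.24, Fgfr2 at -0.38, Slc20a1 at -0.02 and Slc20a2 at -0.32. Without sham 3, Fgfr2 was at -0.11, Slc20a1 at -0.23 and Rxra at -0.33, and without sham 2 Fgfr2 was at -0.14. Leaving out nephrectomy 1 gave -0.10 for Fgfr2, leaving out nephrectomy 2 gave -0.24 for Rxra, and leaving out nephrectomy 3 gave -0.31 for Slc20a2 and -0.85 for Rxra. Beside these values, the summed astrocyte panel in the same sums ran from 7146 to 8094 CPM in sham and from 5869 to 6988 in nephrectomy, with all 10 of its genes detected in every library. The inhibitory neuron panel there ran from 157 to 371 CPM in sham and from 402 to 519 in nephrectomy, and the excitatory neuron panel from 346 to 445 and from 368 to 555. The part of these panels in the member differences was not tested.

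In oligodendrocyte-like nuclei Slc20a2 had 87.6, 103 and 85.1 CPM in sham and 62.6, 78.5 and 76.1 CPM in nephrectomy libraries, so every nephrectomy value was below every sham value. Of the 12075 genes tested there, 4.47% had this pattern. The log2 fold change was -0.38 ± 0.19 (edgeR, adjusted p = 0.963). The oligodendrocyte panel ran from 9243 to 16231 CPM in the sham and from 7931 to 12152 in the nephrectomy sums. Fgfr2 in the same nuclei differed by -0.08 ± 0.20 and changed sign without nephrectomy 1 (0.12). In inhibitory neuron-like nuclei Fgfr2 differed by 0.37 ± 0.25, and by 0.20 without sham 2 and 0.21 without nephrectomy 2. Slc20a1 differed by -0.10 ± 0.11 in excitatory neuron-like and 0.03 ± 0.14 in striatal projection neuron-like nuclei, the smallest errors of any member within a class.

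**Figure D5:**
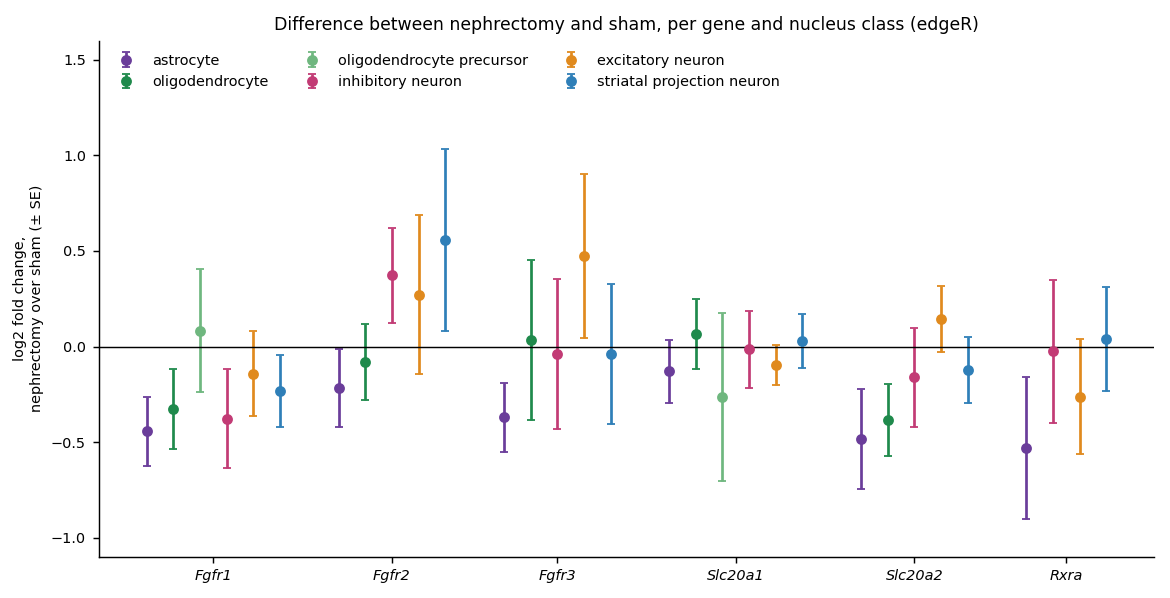
Log2 fold change of nephrectomy over sham for the 31 pairs of member and class tested, grouped by gene and coloured by class, with bars for the standard error of the edgeR fit. Of the 31 points 21 lie below 0, the 6 of astrocyte-like nuclei among them, and none was called.

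Kl and Klb passed the filter on low counts only in the fit over all nuclei. Kl had 2.44, 1.66 and 1.96 CPM in sham and 1.78, 1.82 and 1.74 CPM in nephrectomy libraries (log2 fold change -0.23 ± 0.28, edgeR, adjusted p = 0.912), a value that was -0.0063 without sham 1 and -0.36 without sham 2. Klb had 0.626, 1.28 and 1.08 CPM in sham and 0.754, 0.860 and 1.21 in nephrectomy libraries (-0.12 ± 0.34, adjusted p = 0.971). In both, the groups overlapped. In striatal projection neuron-like nuclei, the class with most Kl UMIs, Kl had 4.02, 2.50 and 2.01 CPM in sham (15, 9 and 18 UMIs) and 1.84, 1.61 and 1.85 CPM in nephrectomy (15, 5 and 8 UMIs). The groups did not overlap, a pattern that 4.59% of the 14083 genes tested there had. Kl did not pass the filter and is not among those genes, and the share among genes of such low counts was not counted. Without the filter the log2 fold change was -0.68 ± 0.50 (edgeR, adjusted p = 0.860). In the same unfiltered fits Kl was at 0.13 ± 0.65 in excitatory neuron-like, -0.17 ± 0.78 in astrocyte-like, -1.08 ± 1.15 in inhibitory neuron-like and -1.68 ± 1.14 in oligodendrocyte-like nuclei, and Klb at 0.52 ± 0.65, -0.39 ± 0.90, 1.53 ± 1.21 and -2.02 ± 1.08, none of them called. Vdr had 12 UMIs in the sham and 18 in the nephrectomy libraries, at 0.166 CPM (0.0855 to 0.289) and 0.237 CPM (0.140 to 0.374), with overlapping intervals and an unfiltered log2 fold change of 0.53 ± 0.53 (edgeR, adjusted p = 0.874).

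The fixed lists of FGF ligands, receptor relatives, klotho-shedding proteases, signalling relays, FGF target genes, vitamin D genes, retinoid X receptor partners and phosphate genes gave 342 pairs of gene and class that could be tested, with 190 higher and 152 lower in nephrectomy. Of these, 0 were called by edgeR and 10 (2.92%) had an unadjusted p under 0.05, where over all genes in the same 7 classes 5.10% of 69952 pairs had one and 50.5% were higher. The 14 FGF feedback and target genes gave 70 pairs, 43 higher and 27 lower. Their lowest p was that of Dusp6 in striatal projection neuron-like nuclei (0.63 ± 0.25, adjusted p = 0.789). Xpr1 in the same class had the lowest p of all lists, with 254, 214 and 230.0 CPM in sham and 167, 177 and 184 CPM in nephrectomy libraries, all nephrectomy values below all sham values, as for 4.59% of genes there. The fitted difference was -0.48 ± 0.14 on the log2 scale (edgeR, adjusted p = 0.789). Hras, a relay gene, followed (0.68 ± 0.23, adjusted p = 0.789). Bace1, a protease that can shed klotho, had the lowest p of its list in oligodendrocyte precursor-like nuclei (0.70 ± 0.33, adjusted p = 0.959).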

How the data were processed

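The authors deposited raw UMI counts per gene and barcode for each library, made from nuclei sorted by flow cytometry with Chromium 3' kit v3.1 and aligned with introns to mm10, per the labels' protocols. The matrix headers name Cell Ranger 6.0.1, per the file headers, where the labels' protocols have 3.0 and the submitters' processing notes 2.1.1. The 9 members and all gene lists were chosen with earlier results of these data known.

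Barcodes had to show 500 genes or more, with mitochondrial UMIs of 5% or less. A nucleus took the class whose marker panel had the most UMIs, given at least 4 UMIs from at least 2 panel genes and at least 2 times the next panel. Doublets were not removed, other than in an alternative that left out the highest Scrublet scores (scanpy 1.11.5, 0.8% per 1000 barcodes). Counts were summed per library and class of at least 20 nuclei and tested with edgeR 4.0.16 (R 4.3.3; TMM, filterByExpr, robust quasi-likelihood test), with Benjamini-Hochberg adjustment over all genes and a threshold of 0.05. Class contrasts had the library as a term. A standard error is the log2 fold change divided by the root of F. DESeq2 1.42.0, other gates, filters and library sets were alternatives. The tests were checked on simulated counts. Intervals are exact Poisson, 95%, and with the 3-count limits cover counting error only. Named genes were the members, 13 pathway genes, the lowest p of each list and the 3 genes most like each member, of at least 20 CPM in their top class.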

Additional observations from a re-analysis of the deposited data

Results flagged for a closer look

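Slc20a2 differed between the groups in opposite directions in microglia-like sums and in 2 other classes. It was picked out for that, so no test of the difference is given. Every nephrectomy value was below every sham value in oligodendrocyte-like sums and in the endothelial-like sums, the latter from only 2 sham and 2 nephrectomy libraries. In microglia-like sums every nephrectomy value was above every sham value, where sham libraries 1 to 3 had 0, 3 and 5 UMIs and nephrectomy libraries 8, 3 and 8. Of the 12075 genes tested in oligodendrocyte-like nuclei 4.47% had all nephrectomy values below all sham values. Such shares were not counted for the microglia-like and endothelial-like sums. The effects in oligodendrocyte-like and microglia-like nuclei were not called (edgeR, adjusted p = 0.963 in oligodendrocyte-like nuclei, and 0.836 in microglia-like nuclei without a filter on low counts, at 1.31 ± 0.74). Nor was that in endothelial-like nuclei, at -1.19 ± 1.07 without the filter (edgeR, adjusted p = 0.955). On log2(CPM + 1) the effect in oligodendrocyte-like minus that in microglia-like nuclei was -3.07, a value that rests in part on the sham library with 0 UMIs, and -2.86 with a looser gate. With a stricter gate it was -0.77, over 2 against 2 libraries, since sham 1 and nephrectomy 2 then had 15 and 19 microglia-like nuclei, under the minimum of 20. The effect in microglia-like minus that in endothelial-like nuclei was 2.08 over the 2 sham and 2 nephrectomy libraries that had both, and no test of it is given either.

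Nuclei without a class entered no comparison, and every member was detected in them. Pooled over libraries, Fgfr1 had 66.0 CPM, Fgfr2 47.8, Fgfr3 35.6, Slc20a1 152, Slc20a2 41.0 and Rxra 8.59 CPM there. Kl had 2.07 CPM, Klb 0.786 and Vdr 0.236.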

How the results depend on the processing

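Of 487 alternative values for 31 surgery effects within classes, 436 kept their sign and 51 did not, and none of the 31 was called in the reported fit. Sign changes among the effects named were Fgfr2 in astrocyte-like (0.0118) and oligodendrocyte-like nuclei (0.0960) and Klb over all nuclei (0.0815) with only the 4 libraries of short barcode lists, Slc20a1 in striatal projection neuron-like (-0.0141) and Fgfr2 in oligodendrocyte-like nuclei (0.0169) with the strict gate, and Fgfr1 in oligodendrocyte precursor-like nuclei with no low-count filter (-0.0145), the loose gate (-0.12) or at least 1000 genes per nucleus (-0.0054). Leaving out 1 library at a time gave -0.29 to 0.039 for Fgfr1 in excitatory neuron-like, -0.0577 to 0.0885 for Slc20a1 in striatal projection neuron-like, -0.23 to 0.12 for Fgfr2 in oligodendrocyte-like and -0.19 to 0.31 for Fgfr1 in oligodendrocyte precursor-like nuclei, and -0.32 to 0.0472 for Klb over all nuclei. Genes called by surgery went from 0 to 80 in excitatory neuron-like, 15 in inhibitory neuron-like, 4 in astrocyte-like, 20 in oligodendrocyte-like, 1 in microglia-like and 1 in endothelial-like nuclei with no low-count filter. In endothelial-like nuclei they were 8 with a term for the long barcode lists, 11 with the short-list libraries, which is the same fit as without sham 3, 1 with called doublets removed and 2 to 11 without 1 library, each time with 1 library in an arm that is assumed to vary like the others. In oligodendrocyte precursor-like nuclei they were 2 with the short-list libraries, 1 with the strict gate and 0 to 1 without 1 library, and in microglia-like nuclei 1 with the strict gate. The cause was not tested.

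With at least 1000 genes per nucleus, genes called lower than in the other classes were 1006 in excitatory neuron-like (3057 as reported), 778 in inhibitory neuron-like (2467), 216 in oligodendrocyte-like (1154), 988 in oligodendrocyte precursor-like (1620), 784 in striatal projection neuron-like (2688), 305 in microglia-like (2236) and 18 in endothelial-like nuclei (1763). The strict gate gave 777 in precursor-like and 1376 in microglia-like nuclei, and DESeq2 size factors 1031 in endothelial-like nuclei. Without 1 library they were 726 to 1077 in oligodendrocyte-like and 1074 to 1483 in precursor-like nuclei. Rxra in oligodendrocyte-like nuclei became 1.35 at 1000 genes. Of 338 alternative values for 26 member contrasts between classes, 291 kept their call, 45 lost it and 2 changed sign.

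Whether the replicate numbers pair the libraries could not be decided. Same-numbered libraries correlated from -0.17 to 0.22 over 24 values, 8 of them over 0.1. The library was closest to the one of its own number in 8 of the 24. These values repeat the same 3 numbers over classes and all nuclei, so they are not independent. With the number as a block, 0 genes were called in each class, and Fgfr1 in astrocyte-like nuclei was at -0.43 (edgeR, adjusted p = 0.890). With at least 1000 genes per nucleus the surgery fits of microglia-like and endothelial-like nuclei were not run, since too few libraries had 20 nuclei. Kl, Klb and Vdr passed the filter on low counts in no class of the reported fits, and the part of depth in this was not tested.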
